A study of Rattus norvegicus with 4 samples.

Results

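The comparison set the kidney of a rat injected with puromycin aminonucleoside (PAN) against the kidney of an untreated rat, with 1 spatially barcoded section from each. Its members were all spots with at least 500 UMIs in the PAN and healthy sections, which came to 2724 and 2866 spots, or 5590 of the 10370 spots of the series. A UMI is a molecular tag that counts 1 captured RNA molecule, and a spot is a small area of tissue that may cover more than 1 cell type. All animals were Sprague-Dawley rats. The PAN rat was fed ad libitum and examined 5 months after the injection, which the labels also give as 6 weeks post treatment without saying what that means for a rat not on the diet. The healthy rat had received nothing. The healthy_LS-FMD section, from a rat without the toxin that had gone through 1 cycle of the fasting-mimicking diet with low salt (LS-FMD) and 72 hours of refeeding, served as a second reference. The PAN_LS-FMD section, from an injected rat after 6 such cycles, is given for some genes as a further value. Its labels give the same 5 months after injection and 6 weeks post treatment. Each group was a single section, so a fold below describes these sections and could not be set against the spread between animals. No p-value was computed, and each interval is a 95% interval of counting error.

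Puromycin aminonucleoside is a toxin that injures podocytes, the cells whose foot processes form the filtration slit of the glomerulus, and it is used in rats to produce heavy proteinuria. Filtered protein then reaches the tubules, and chronic disease after this toxin is known for tubular injury, interstitial inflammation and scarring. In the damaged tubule, epithelial cells lose transport functions and switch on genes such as Havcr1 and Lcn2, while fibroblasts deposit collagen and lymphoid and myeloid cells enter the interstitium. The purpose of the comparison, as far as the labels give it, was to set the injected kidney without the diet beside an uninjected one.

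The PAN section held 24924170 UMIs and the healthy section 58568499, with a median of 8482 and 19531 UMIs per spot, so the healthy section was the more deeply sampled. The healthy_LS-FMD section held 25330872 UMIs with a median of 8823 per spot. Per the file headers, the healthy matrix came from Space Ranger 2.0.1 and the PAN and healthy_LS-FMD matrices from version 1.2.1. For this reason each named gene was also set against healthy_LS-FMD. Where a single reference value is printed below, it is that of the healthy section. A count of 3 UMIs was worth 0.12 CPM in the PAN section and 0.0512 CPM in the healthy section, with CPM meaning UMIs per 1000000 UMIs of the section. Haemoglobin RNA made up 0.145% of UMIs in PAN, 1.43% in healthy and 0.216% in healthy_LS-FMD. Nephron segment markers differed between the references too: the summed principal cell markers stood at 662 CPM in PAN, 918 in healthy and 2217 in the healthy_LS-FMD section. The deposited sections were labelled kidney, and markers of podocytes (Nphs1), proximal tubule (Lrp2), thick ascending limb (Umod) and principal cells (Aqp2) were present in all of them. Fewer cells of a type and less RNA per cell cannot be told apart in summed spots, and this applies to every level below.

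A gene entered the comparison with at least 200 UMIs over the PAN and healthy sections, which 10195 of 32402 genes had, and it was called higher or lower at a CPM ratio of at least 2. In the PAN section 2290 genes (22.5%) were higher and 553 (5.42%) lower. These genes carried much of the RNA: those called higher made up 19.2% of UMIs in the PAN section against 5.25% in the healthy section, and those called lower 6.21% against 19.4%. At a 10-fold ratio there were still 116 genes higher and 36 lower. The median log2 ratio of all genes was 0.47, not 0, and 80.5% of the called genes were higher. With the median set to 0, the counts were 1294 genes (12.7%) higher and 1122 (11%) lower, so the share of called genes that were higher was 53.6%. Genes of lower level were called higher more often, 35.3% among genes with a mean level from 1.82 to 12.8 CPM against 11.6% among those from 74.6 CPM upward.

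Against the healthy_LS-FMD section, 1262 of 9806 genes (12.9%) were at least 2-fold higher in the PAN section and 561 (5.72%) lower, with a median log2 ratio of 0.12. The references themselves differed: healthy_LS-FMD over healthy had 684 of 9947 genes (6.88%) higher and 183 (1.84%) lower. These comparisons share sections, so their values are given side by side only. Of the 2290 genes called higher, 1191 (52%) were also at least 2-fold higher against healthy_LS-FMD, and 353 (63.8%) of the 553 lower genes were also lower. In spots of 5000 to 12000 UMIs alone, a window with 1740 PAN and 262 healthy spots that was chosen after the data had been examined, 1262 genes (15.4%) were higher and 274 (3.34%) lower. The 10th percentile of healthy spots was 12197 UMIs, and the 10th and 90th percentiles of PAN spots were 4139 and 14844. The window therefore sets only the shallow healthy spots against the middle of the PAN section, here and wherever it is used below.

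**Figure D1:**
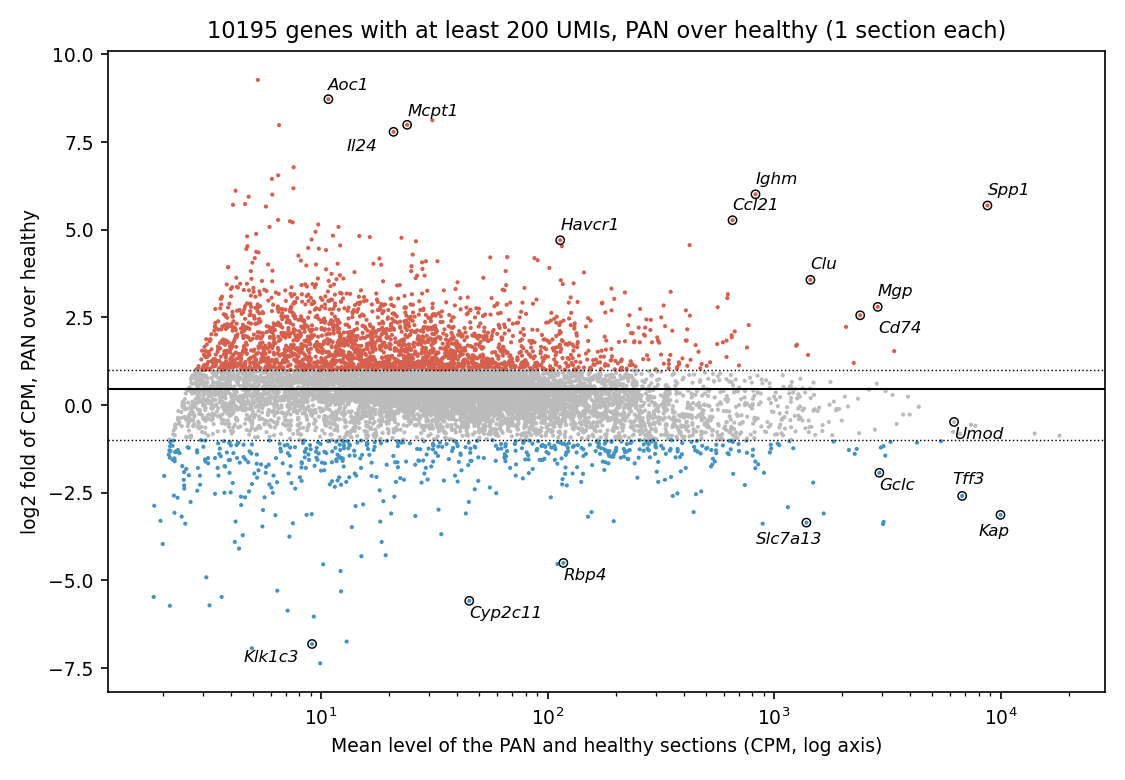
Each point is 1 of the 10195 genes, with the mean CPM of the PAN and healthy sections on a log axis and the log2 CPM ratio of PAN over healthy on the vertical axis; the solid line is the all-gene median of 0.47 and the dotted lines mark 2-fold. Spp1 stands high among the abundant genes, with Kap, Tff3, Slc7a13 and Gclc below the lower line.

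Of all genes measured, Spp1 gained most in CPM between the healthy and PAN sections. Spp1 (ENSRNOG00000043451), which encodes osteopontin, a secreted phosphoprotein made by stressed tubule cells, had 427824 UMIs in the PAN section and 19472 in the healthy section. Its level was 17165 CPM in the PAN section, 332 in healthy, 225 in PAN_LS-FMD and 1292 in healthy_LS-FMD. The PAN value lay 51.6-fold (50.9 to 52.4) above healthy and 13.3-fold above healthy_LS-FMD, so the choice of reference moved this ratio more than counting error did. Havcr1 (ENSRNOG00000007243), the KIM-1 receptor that injured proximal tubule cells display, stood at 219 CPM against 8.43 in healthy, 6.21 in PAN_LS-FMD and 5.49 in healthy_LS-FMD. The PAN section stood alone for Havcr1, at 25.9-fold (23.6 to 28.5) over healthy and 39.8-fold over healthy_LS-FMD. Lcn2, the siderophore-binding lipocalin released from distal segments in injury, stood at 222 CPM in PAN, 9.63 in healthy and 15.9 in the healthy_LS-FMD section, 23-fold (21.1 to 25.2) over healthy. Clu, the extracellular chaperone clusterin, stood at 2669 CPM against 225 and 217 in the references, 11.9-fold (11.6 to 12.1) over healthy.

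The list of 25 tubular injury genes had 21 measured members, of which 15 were at least 2-fold higher, none lower and 6 neither, beside 22.5% and 5.42% of all genes. Their median log2 ratio was 1.86 against healthy and 1.67 against healthy_LS-FMD, beside 0.47 and 0.12 for all genes. The keratin gene Krt7 (318 against 332 CPM) and the stem cell marker gene Prom1 (167 against 195 CPM) were among the 6 that were neither, and both are named here after their values were seen. The 4 members under the minimum, which included the keratins Krt19 and Krt20, had 79 UMIs in the PAN section and 59 in the healthy section together. Il24, a cytokine gene of the interleukin-10 family, was at 41.6 CPM in the PAN section and at 0.188, 0.114 and 0.079 CPM in the healthy, PAN_LS-FMD and healthy_LS-FMD sections. Reg3g, which encodes a secreted lectin of injured epithelia, was at 10.5 CPM against 0.0171 in the healthy section, where it had 1 UMI. It had 0 UMIs in the healthy_LS-FMD section. Aoc1, the diamine oxidase gene, stood at 21.5 CPM against 0.0512 in healthy and 0.118 in healthy_LS-FMD. Trpv6, an epithelial calcium channel gene, stood at 15 CPM against 0.137 and 0.237. Counts of a few UMIs in the references leave these ratios wide, as in Aoc1, whose ratio of 421 to healthy had an interval of 143 to 2046. The ratio of Aoc1 to healthy_LS-FMD was 182 (61.9 to 885).

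**Figure D2:**
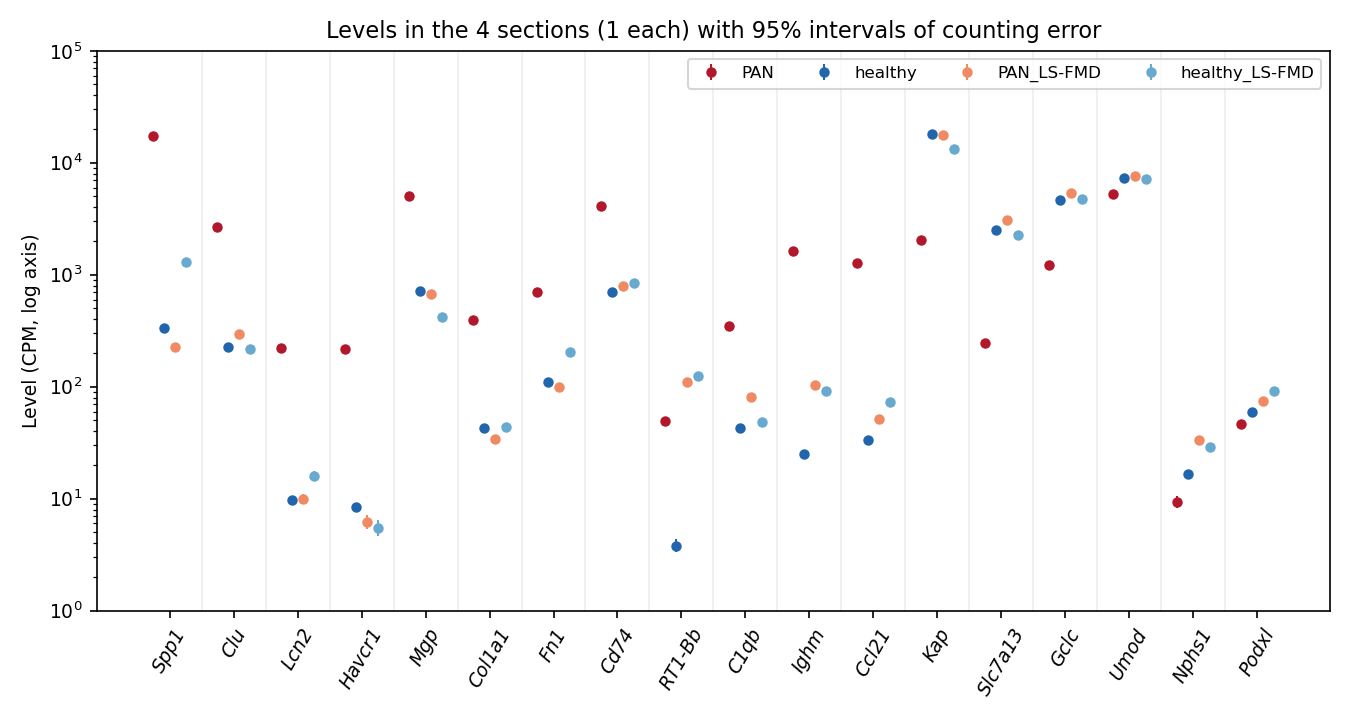
Levels of 18 genes in CPM (log axis) in the PAN, healthy, PAN_LS-FMD and healthy_LS-FMD sections, 1 section each, with 95% counting intervals that are often smaller than the point. The PAN point lies above the other 3 for the injury, matrix and immune genes apart from RT1-Bb, and below them for Kap, Slc7a13, Gclc, Umod, Nphs1 and Podxl.

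Collagens outside type IV and matricellular genes were higher in every measured member against healthy, where 22.5% of all genes were at least 2-fold higher. All 13 measured collagens outside type IV were at least 2-fold higher, with a median log2 ratio of 2.92 against healthy and 2.53 against healthy_LS-FMD. The 4 unmeasured members, among them Col14a1 and Col15a1, had 5 and 7 UMIs in the PAN and healthy sections. Col1a1, a chain of the fibrillar type I collagen, stood at 396 CPM in the PAN section, 43 in healthy, 33.8 in PAN_LS-FMD and 43.9 in healthy_LS-FMD, a ratio of 9.23 (8.83 to 9.64) to healthy. Col3a1, of type III collagen, stood at 632 CPM against 67.3 and 49.8, and Col8a1, a short-chain collagen, at 15.4 against 0.888 and 0.434. Against healthy_LS-FMD, 12 of the 13 collagens were at least 2-fold higher, beside 12.9% of all genes. The references differed too, with 2 of the 13 at least 2-fold lower in healthy_LS-FMD than in healthy, beside 1.84% of all genes. All 22 measured matricellular and proteoglycan genes were higher as well, with medians of 2.64 and 2.18, and the remaining 2 had 19 and 9 UMIs. Mgp, the matrix Gla protein that keeps soft tissue from calcifying, stood at 5014 CPM against 722 in healthy, 677 in PAN_LS-FMD and 421 in healthy_LS-FMD. Its ratio to healthy was 6.94 (6.86 to 7.02). Postn, the fibroblast protein periostin, stood at 12.8 CPM against 0.137, 0.114 and 0.158 CPM in the healthy, PAN_LS-FMD and healthy_LS-FMD sections. Cthrc1, a secreted protein of activated fibroblasts, was 33.9-fold (24.6 to 48) and Lum, the collagen-binding proteoglycan lumican, 14.6-fold (11.5 to 18.7) over healthy. Over healthy_LS-FMD they were 25.5-fold and 13.8-fold higher.

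Basement membrane genes differed less. Of 15 measured members 7 were higher and 8 neither, with medians of 0.93 and 0.73, and 5 members with 63 and 145 UMIs were under the minimum. Beside this and the next lists stand 22.5% of all genes higher and 5.42% lower against healthy. Col4a1, a chain of the type IV collagen network, stood at 1281 CPM against 264 and 310. Growth factors of matrix deposition followed. Tgfb1, the main profibrotic growth factor, stood at 121 CPM against 15.9 in the healthy section and 27.6 in the healthy_LS-FMD section, and Tgfb2 at 20.9 against 1.93 and 2.45. Inhbb, a chain of activin B, was 12-fold (9.75 to 15) over healthy and 21-fold over healthy_LS-FMD. The TGF-beta and BMP list as a whole had 8 of 16 measured members higher and 1 lower against healthy, with a median of 0.99. Against healthy_LS-FMD it had 4 higher and 3 lower, beside 12.9% and 5.72% of all genes, with a median of 0.52. Of its 22 genes, 6 were under the minimum. Among matrix proteases and inhibitors 7 of 14 were higher and 1 lower, with 5 unmeasured. Mmp2, a gelatinase, stood at 239 CPM against 21.6 and 26.3, whereas Mmp9, the other gelatinase, stood at 1.56 CPM against 9.7 and 8.01, that is 6.2-fold (4.48 to 8.81) lower.

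Contractile and pericyte genes were higher in 7 of 12 measured members and lower in none, beside 22.5% and 5.42% of all genes. Their medians were 1.22 and 1.08. The unmeasured member, Notch3, had 0 and 6 UMIs. Tagln, a smooth muscle actin-binding protein, stood at 444 CPM against 95.9 and 96.4. Acta2, the smooth muscle actin that myofibroblasts share, stood at 61.7 against 13.3 and 30.8. In spots of 5000 to 12000 UMIs the list median was 0.00, Acta2 had a log2 ratio of 0.37 in place of 2.21 and Cnn1, the smooth muscle gene calponin, -0.18 in place of 2.24, so these ratios depended on which spots were summed.

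Genes of antigen presentation were higher as a group against healthy. MHC class II molecules are surface heterodimers that present peptides to helper T cells. Their genes share a promoter module of an X box and a Y box, on which the coactivator CIITA assembles. The RefSeq sequences of GRCr8 held windows for 10 of the 12 genes of the list. The 150 bases before the annotated start are given for 4 genes of class II chains. Their RNA was among the most abundant of the chain genes or, for RT1-Bb, went the other way against the second reference. Capitals mark the X box core AGCAAC and the Y box TGATTGG, each searched on both strands, and the marked stretches do not overlap.
RT1-Da, chr20:4515265-4515414, plus strand: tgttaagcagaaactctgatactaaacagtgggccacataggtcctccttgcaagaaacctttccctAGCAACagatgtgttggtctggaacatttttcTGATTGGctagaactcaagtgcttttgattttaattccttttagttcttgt
RT1-Db1, chr20:4560163-4560312, minus strand: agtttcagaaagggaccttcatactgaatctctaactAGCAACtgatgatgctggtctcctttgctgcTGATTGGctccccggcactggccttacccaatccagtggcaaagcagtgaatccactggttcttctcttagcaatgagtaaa
RT1-Ba, chr20:4576907-4577056, plus strand: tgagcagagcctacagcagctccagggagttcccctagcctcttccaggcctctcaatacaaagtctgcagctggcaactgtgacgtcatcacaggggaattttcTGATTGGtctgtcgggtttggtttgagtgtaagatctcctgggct
RT1-Bb, chr20:4604119-4604268, minus strand: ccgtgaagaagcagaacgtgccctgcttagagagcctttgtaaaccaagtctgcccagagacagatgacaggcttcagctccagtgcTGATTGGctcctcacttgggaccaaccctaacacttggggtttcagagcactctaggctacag
In the RT1-Da window the X core begins 83 bases and the Y box 51 bases before the start, and in RT1-Db1 they begin 113 and 82 bases before it. The windows of RT1-Ba and RT1-Bb hold the Y box letters, 45 and 63 bases before the start, and not those of the X core. Cd74, the most abundant gene of the list, also had a window, which is not printed. It holds the X core letters, 71 bases before the start, and not those of the Y box. Over the 250 bases before the start, 7 of the 10 windows held the X core letters, 9 the Y box letters and 6 both. Of all 33469 such windows in the table, 12.1% held the first, 6.42% the second and 0.819% both. A match is a description of letters, and the sections do not measure binding.

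All 7 measured MHC class II genes were at least 2-fold higher in the PAN section than in the healthy one, beside 22.5% of all genes. Their median log2 ratio was 3.09. The 5 others had 186 UMIs in the PAN section and 65 in the healthy section together. Cd74, the invariant chain that escorts class II molecules, stood at 4107 CPM against 694 in healthy, 786 in PAN_LS-FMD and 844 in healthy_LS-FMD, a ratio of 5.92 (5.85 to 5.99). RT1-Da, the alpha chain whose promoter is given above, stood at 984 CPM against 143, 166 and 165, 6.89-fold (6.73 to 7.07) over healthy. RT1-Db1, its beta chain partner, stood at 1125 CPM against 126, 232 and 216, 8.94-fold (8.71 to 9.17). RT1-Ba stood at 571 CPM against 79.7, 99.3 and 98.9. RT1-Da and RT1-Ba were named after their values were seen. Ciita, the coactivator itself, stood at 26.3 CPM against 3.09 in healthy, 3.78 in PAN_LS-FMD and 2.8 in healthy_LS-FMD.

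RT1-Bb did not keep this pattern. It stood at 49.3 CPM in the PAN section against 3.81 in the healthy section, 13-fold (11.2 to 15) higher, but at 110 CPM in PAN_LS-FMD and 125 in healthy_LS-FMD, so it was 2.53-fold lower in PAN than in the second reference. The low value was that of the healthy section, the only one from the later software version. With 1 section a group, animal and software version cannot be told apart here. MHC genes are near-identical and polymorphic, and the way reads were shared among them is uncertain.

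Macrophage, T and NK cell, and B and plasma cell markers were higher in every measured member against healthy, beside 22.5% of all genes. All 17 measured macrophage genes were at least 2-fold higher, with medians of 2.47 against healthy and 2.34 against healthy_LS-FMD. The 4 unmeasured ones had 299 UMIs in the PAN section against 96. C1qb, a chain of the complement C1q made by resident macrophages, stood at 351 CPM against 42.9 and 48.8. Mrc1, the mannose receptor of tissue macrophages, stood at 48.3 CPM against 2.48 and 5.21, a ratio of 19.5 (16.4 to 23.3) to healthy. Gpnmb (61.7 against 3.6 and 2.8 CPM) and Trem2 (22.3 against 1.37 and 1.66), which mark lipid-handling macrophages in scarred tissue, were 17.1-fold and 16.4-fold over healthy. All 15 measured T and NK cell genes were higher, with medians of 2.59 and 2.39, and the other 2 found in the files, Cd4 and Gzmb, had 1 and 5 UMIs together in the PAN and healthy sections. Cd5, a T cell surface receptor, stood at 17.4 CPM against 1.6 and 1.86, and Zap70, a kinase of T cell receptor signalling, at 19.4 against 2.05 and 3.

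B and plasma cell genes had the highest median of the lists with at least 3 measured members, at 4.19 against healthy and 3.81 against healthy_LS-FMD. All 7 measured members were higher, beside 22.5% of all genes. The 5 others, Cd79a among them, had 273 UMIs in the PAN section against 44 in the healthy section. Ighm, the immunoglobulin M heavy chain, stood at 1631 CPM in the PAN section, 25.3 in healthy, 104 in PAN_LS-FMD and 90.9 in healthy_LS-FMD. Its ratio was 64.5 (61.3 to 68) to healthy and 17.9 to healthy_LS-FMD. Igkc, the kappa light chain constant region, stood at 813 CPM against 34.4, 41.8 and 58 CPM. Of 17 measured chemokine genes 12 were higher and none lower against either reference, with a median of 1.73 for both. Of all genes, 22.5% were higher and 5.42% lower against healthy, and 12.9% and 5.72% against healthy_LS-FMD. The 7 unmeasured chemokine genes had 289 UMIs in the PAN section and 156 in the healthy section. Ccl21, the chemokine of lymphatic vessels and T cell zones, stood at 1278 CPM against 33.2, 51.3 and 72.8, a ratio of 38.5 (36.8 to 40.3) to healthy. Ccl19, which shares its receptor, stood at 348 CPM against 34.8, 24.5 and 36.4. Cxcl13, which draws B cells into follicles, stood at 23.2 CPM against 1.9 in healthy, 13.8 in PAN_LS-FMD and 2.01 in healthy_LS-FMD. Cr2, a complement receptor of B cells and follicular dendritic cells, stood at 8.02 CPM against 0.154 and 0.118, with 0 UMIs in the PAN_LS-FMD section.

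Mast cell RNA was seen through a single abundant gene. Mcpt1, a mast cell chymase, stood at 47.8 CPM in the PAN section against 0.188 in the healthy section and 0.355 in the healthy_LS-FMD section, with 0 UMIs in the PAN_LS-FMD section. Its ratio to healthy was 254 (142 to 511). Of the other mast cell genes only Kit, which kidney cells also express, was measured, at 37.2 CPM against 17 in healthy and 33.5 in healthy_LS-FMD. The 7 unmeasured ones had 286 UMIs in the PAN section and 27 in the healthy section, of which Cpa3, the mast cell carboxypeptidase, had 142 and 1. Few neutrophil markers could be measured, so no direction is given for that list. Beside it and the complement and interferon lists stand 22.5% of all genes higher and 5.42% lower against healthy. Of 3 measured members 1, the Fc receptor gene Fcgr3a that other myeloid cells also express, was higher, at 58.2 CPM against 17.2 in healthy and 15.1 in healthy_LS-FMD. The list median was 0.63 and 0.69, and the 7 unmeasured members had 123 UMIs in the PAN section and 77 in the healthy section. S100a8 stood at 3.25 CPM in PAN, 2.1 in healthy and 2.01 in healthy_LS-FMD, and S100a9 at 2.65, 3.14 and 2.01 in the same order. Of the 12 measured complement genes 11 were higher, with medians of 2.44 and 1.78 and 5 members under the minimum. C6, of the membrane attack complex, stood at 18.7 CPM against 0.854 and 0.355, and Cfp, the stabilising factor properdin, at 115 against 11.7 and 16.7. Of 23 measured interferon response and antigen processing genes 21 were higher, with medians of 1.66 and 1.43 and 1 member unmeasured. Tap2, which carries peptides to class I molecules, stood at 16.8 CPM against 1.54 and 5.84. B2m, the light chain of class I molecules, stood at 3131 against 1365 and 1135, and with the all-gene median set to 0 its log2 ratio to healthy was 0.73, under 2-fold.

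The straight segment of the proximal tubule, S3, lay at the other end. Of its 9 measured markers 7 were at least 2-fold lower and none higher against healthy, beside 5.42% and 22.5% of all genes. Their medians were -2.40 against healthy and -2.70 against healthy_LS-FMD. Slc5a1, the unmeasured one, had 27 and 93 UMIs. Kap (ENSRNOG00000005858), an androgen-responsive protein of the rodent proximal tubule, stood at 2049 CPM in the PAN section against 17930 in healthy, 17617 in PAN_LS-FMD and 13317 in healthy_LS-FMD. It was 8.75-fold (8.67 to 8.83) lower than in healthy, and the 3 other sections lay together. Slc7a13, a cystine transporter of S3 cells, stood at 248 CPM against 2530, 3087 and 2259, a 10.2-fold (9.94 to 10.5) lower value. Slco1a6, an organic anion transporter, stood at 133 CPM against 771, 866 and 923. Tff3, a trefoil peptide, stood at 1925 CPM against 11608, 10245 and 6828.

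Markers of the S1 and S2 segments were not uniformly lower. Of 15 measured members 3 were higher, 2 lower and 10 neither, beside 22.5% of all genes higher and 5.42% lower. The share of higher members was thus near that of all genes. The median of -0.24 against healthy became 0.56 against healthy_LS-FMD. The unmeasured Slc4a4 had 58 and 117 UMIs. Lrp2, the endocytic receptor megalin that retrieves filtered protein, stood at 970 CPM in the PAN section against 1149, 1401 and 1054. Miox, an enzyme of inositol breakdown, stood at 408 CPM against 1245 in healthy and 695 in healthy_LS-FMD. Slc2a2, the basolateral glucose transporter GLUT2, stood at 122 CPM against 46.7 and 19.3, and Slc7a7, a basolateral amino acid transporter subunit, at 61 against 16.1 and 4.54. Some genes with the largest differences were lower against both references. Rbp4, the plasma carrier of retinol, stood at 9.95 CPM against 225 and 97.8, 22.6-fold (20 to 25.8) below healthy. Cyp2c11, a male-predominant P450 of the rat, stood at 1.85 against 88.4 and 36.3, 47.9-fold (35.9 to 65.5) lower. The P450 family as a whole had 6 genes higher, 7 lower and 16 neither among 29 measured, with 40 under the minimum. Klk1c3, a kallikrein with near-identical relatives and more than 1 identifier in the files, stood at 0.16 CPM against 18.1 and 13.4.

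Of the energy metabolism lists, those of mitochondrial respiration, fatty acid oxidation and gluconeogenesis had medians below 0 against both references. The glycolysis median was below 0 only against healthy_LS-FMD. None of the 20 nuclear oxidative phosphorylation genes was higher, 5 were lower and 15 neither against healthy, and 1 was lower and 19 neither against healthy_LS-FMD, where 5.72% of all genes were lower. Their medians were -0.74 and -0.68, beside all-gene medians of 0.47 and 0.12. All 20 had a ratio to healthy below 1. Cycs, cytochrome c, stood at 1247 CPM against 3033 and 2745, and Cox8a, a cytochrome oxidase subunit, at 1784 against 4137 and 2843. Of the mitochondrially encoded genes 1 of 16 measured was lower, a share near the 5.42% of all genes, with medians of -0.55 and -0.79. Fatty acid oxidation and ketogenesis genes had 1 higher, 7 lower and 12 neither among 20 measured against healthy and 2 higher, 3 lower and 15 neither against healthy_LS-FMD, and their medians were -0.87 against healthy and -0.49 against healthy_LS-FMD. Acadm, the medium-chain acyl-CoA dehydrogenase, stood at 276 CPM against 798 and 684. Gluconeogenesis genes were lower in 4 of 9 against healthy and 1 of 9 against healthy_LS-FMD. Pck1, the pathway's controlling enzyme, stood at 347 CPM against 916 and 463. Glycolysis genes had 2 higher, none lower and 11 neither among 13 measured, with medians of 0.06 against healthy and -0.22 against healthy_LS-FMD. Both lay below the all-gene medians of 0.47 and 0.12. Hk2, an inducible hexokinase, stood at 6.54 CPM against 0.768 and 1.97. In glutathione synthesis Gclc, the catalytic subunit of the limiting ligase, stood at 1216 CPM against 4619, 5421 and 4741 in the healthy, PAN_LS-FMD and healthy_LS-FMD sections, 3.8-fold (3.75 to 3.84) below healthy. Gclm, its modifier subunit, stood at 433 CPM against 1177, 1478 and 1398. In spots of 5000 to 12000 UMIs the log2 ratios of Gclm and Cycs were -0.93 and -0.90, just short of 2-fold. The antioxidant list held 4 lower, 2 higher and 16 neither of 22 measured, beside 5.42% of all genes lower and 22.5% higher. Hmox1, the haem-degrading stress enzyme, was one of the higher genes, at 22.7 CPM against 3.52 and 5.09. None of 66 ribosomal protein genes and none of 33 proteasome genes was 2-fold apart from healthy.

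Glomerular markers did not move as a block, although the toxin is aimed at podocytes. Of 14 measured podocyte genes 5 were higher, 3 lower and 6 neither, beside 22.5% of all genes higher and 5.42% lower. Their median was 0.27 against healthy, -0.20 with the all-gene median set to 0, -0.52 against healthy_LS-FMD and -1.17 in spots of 5000 to 12000 UMIs, so no direction is given for the list. The 8 unmeasured members had 107 UMIs in the PAN section and 278 in the healthy section, and Synpo among them had 0 and 3. Nphs1, the slit diaphragm protein nephrin, stood at 9.35 CPM in the PAN section, 16.5 in healthy, 33.3 in PAN_LS-FMD and 28.7 in healthy_LS-FMD. It was lowest in the PAN section, 1.77-fold (1.53 to 2.05) below healthy and 3.07-fold below healthy_LS-FMD. Ddn, the podocyte protein dendrin, was 3.23-fold (2.49 to 4.26) lower than in healthy and 4.84-fold lower than in healthy_LS-FMD. Wt1, a podocyte transcription factor, stood at 6.26 CPM against 8.5, 18.1 and 13.3, and Podxl, of the podocyte surface coat, at 46.1 against 59.4, 74 and 90.6. Higher members included Nes, Robo2 and Kirrel. Nes, the intermediate filament nestin, stood at 54 CPM against 17.3 and 21.2, Robo2 at 27.9 against 6.04 and 9.95, and Kirrel at 21.9 against 5.16 and 7.03. In spots of 5000 to 12000 UMIs the log2 ratios of Nes and Kirrel were 0.53 and 0.77 in place of 1.64 and 2.09. Endothelial genes were 2-fold higher in 1 of 13 measured, Cdh5, at a ratio of 2.01 (1.84 to 2.19), and lower in none, with medians of 0.32 and -0.42.

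In the thick ascending limb and collecting duct lists the median lay nearer to 0 against healthy than against healthy_LS-FMD. Beside all counts of this paragraph stand 22.5% of all genes higher and 5.42% lower against healthy. Against healthy_LS-FMD the shares of all genes were 12.9% and 5.72%. None of 9 thick ascending limb markers was 2-fold apart from healthy, whereas 4 were lower than in healthy_LS-FMD. Umod, the abundant urinary protein uromodulin, stood at 5210 CPM against 7253 in the healthy section and 7121 in the healthy_LS-FMD section. Slc12a1, the loop diuretic target NKCC2, stood at 506 CPM against 510 and 1326. Principal cell markers were lower in 1 of 8 measured against healthy and in 8 of 8 against healthy_LS-FMD. Aqp2, the vasopressin-regulated water channel, stood at 264 CPM against 335, 397 and 949. Slc12a3, the thiazide-sensitive cotransporter of the distal convoluted tubule, stood at 126 CPM against 257, 455 and 590, 2.04-fold (1.96 to 2.12) below healthy. For Slc4a1, the anion exchanger shared by intercalated cells and red cells, the values were 116 CPM in PAN, 112 in healthy and 329 in the healthy_LS-FMD section. Of 9 intercalated cell markers none was 2-fold apart from healthy and 6 were lower than in healthy_LS-FMD. The summed markers of each of these lists, and of the distal convoluted and connecting tubule, were highest in the healthy_LS-FMD section, and the part of tissue makeup in these ratios was not tested. The inner medulla list of osmolyte genes, of which 3 of 5 measured members were higher against healthy, had 1 higher and 2 lower against healthy_LS-FMD. The summed red cell genes stood at 925 CPM in PAN, 8818 in healthy and 1519 in the healthy_LS-FMD section. All 5 measured red cell genes were lower against healthy and none against healthy_LS-FMD.

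**Figure D3:**
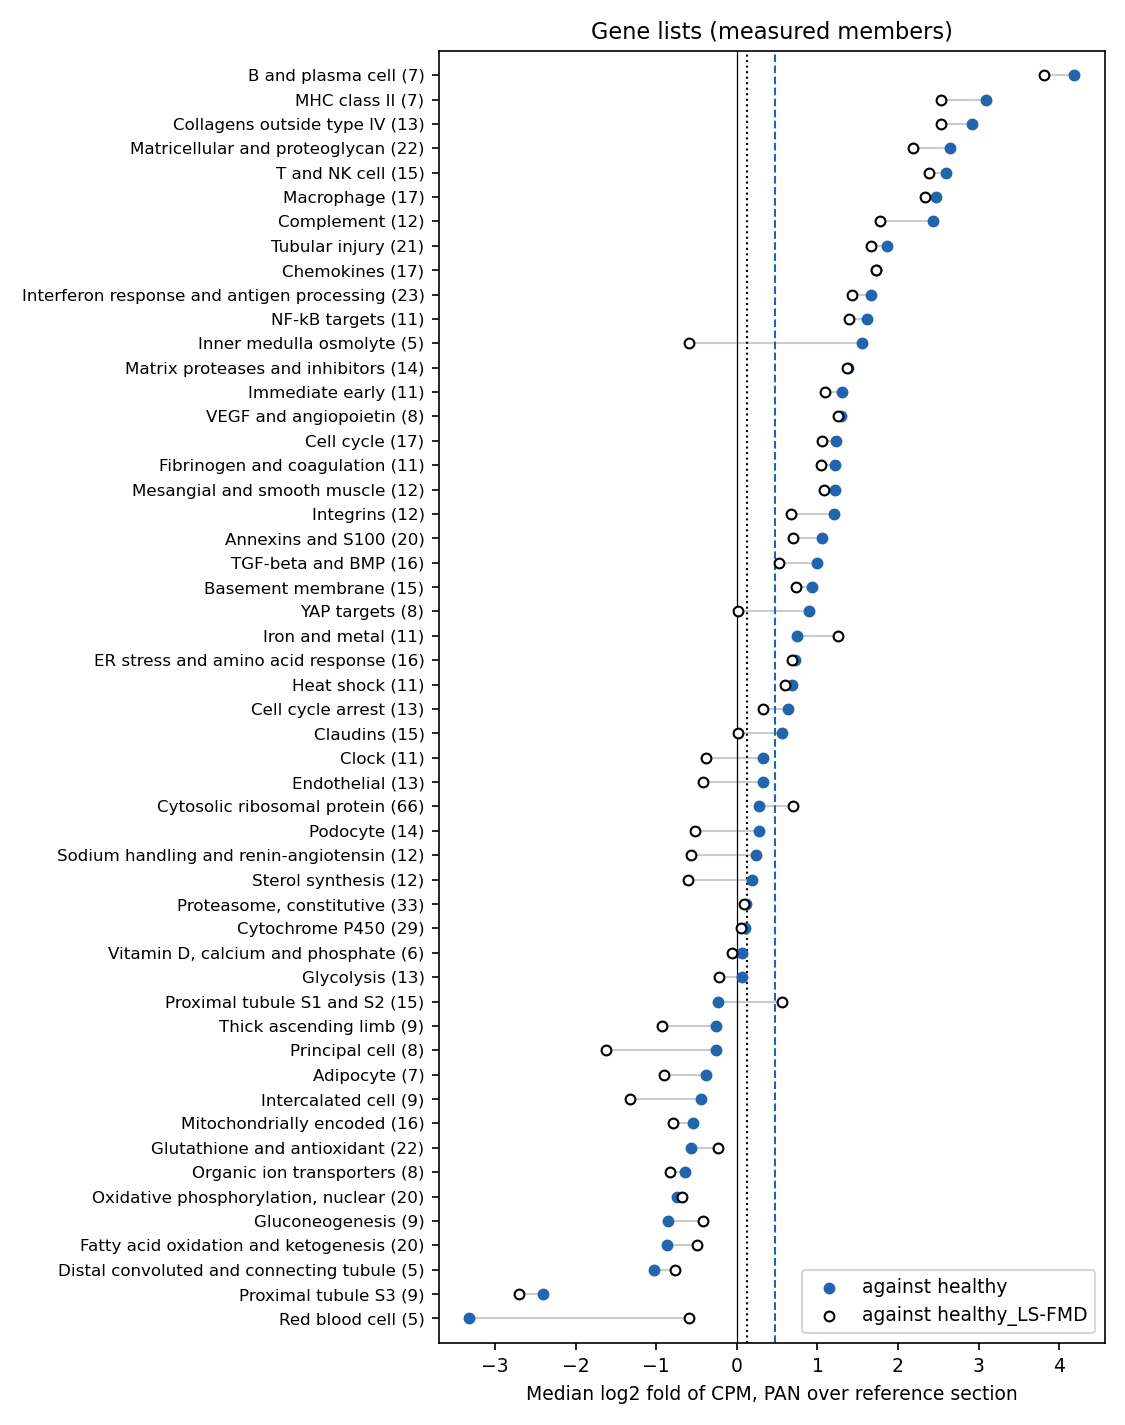
Median log2 CPM ratio of the measured members of each list with at least 5 of them (number in brackets), for PAN over healthy (filled) and PAN over healthy_LS-FMD (open); the dashed and dotted lines are the all-gene medians of 0.47 and 0.12. Immune and matrix lists lie to the right of both lines for either reference, S3 markers to the left, and the inner medulla list, at 1.55 and -0.60, changes side.

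Some genes went opposite ways against the references. By at least 2-fold each way, 5 of the 2290 higher genes and 6 of the 553 lower ones did so. Besides RT1-Bb the higher ones were Dmrtc1c1 (34.6 CPM in PAN, 2.99 in healthy and 136 in healthy_LS-FMD), the urea transporter gene Slc14a1 (8.63, 1.55 and 18.1), Ndrg4 (32.4, 13.8 and 98.9) and the ligand gene Wnt7b (10.9, 4.64 and 41.2). The lower ones that the rule named were Nwd2 (0.522, 7.8 and 0.158 CPM in the same order), Ahsp (2.29, 8.3 and 1.11), Alox15 (1.52, 4.66 and 0.553), Vnn1 (59.8, 122 and 13.7) and Prima1 (12.9, 26.2 and 3.59). Ahsp, the alpha haemoglobin chaperone, and Alox15 had log2 ratios to healthy of -0.41 and -0.22 without spots over 5% haemoglobin, in place of -1.86 and -1.61. Such spots numbered 172 in the healthy section and 12 in the PAN section. The healthy_LS-FMD rat had been through the diet, so the second reference is not an untreated kidney.

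To see how evenly these differences were spread, each spot was reduced at random to 3000 UMIs. This kept 2607 spots of the PAN section, 2863 of the healthy section and 2551 of the healthy_LS-FMD section, and left out 117, 3 and 42 shallower ones. Spots of 1 section share the animal and the slide, so the following describes how values were spread within sections. Injury genes made up a median of 2.23% of the UMIs of a PAN spot, 0.2% of a healthy spot and 0.3% of a healthy_LS-FMD spot. All 2607 PAN spots lay above the 95th percentile of healthy spots (0.433%), and 1984 lay above the highest healthy spot. Without Spp1, 2416 PAN spots (92.7%) lay above the 95th percentile of healthy spots for the shortened list (0.333%), with medians of 0.633% and 0.167%. In the healthy_LS-FMD section 17% of spots did.

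Spp1 itself was found in 100% of the thinned PAN spots, at a median of 47 of 3000 UMIs, against 46.9% of healthy spots and 80.6% of healthy_LS-FMD spots. Without thinning the shares were 100%, 94.6% and 97.9%. Havcr1 was found in 37.1% of thinned PAN spots against 2.58% of healthy and 1.37% of healthy_LS-FMD spots (65.6%, 12.8% and 4.01% without thinning). Mcpt1 and Il24 were each found in 11.3% of thinned PAN spots. Kap was found in 85.4% of thinned PAN spots and 100% of the spots of either reference, at medians of 2, 48 and 23 UMIs.

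Lists of matrix and immune genes differed in the share of PAN spots that lay above the healthy 95th percentile. This share depends on how abundant a list is and is not a measure of the area covered. That percentile was 0.0333%, as given by a single UMI, for the B and plasma, T and NK, mast cell and neutrophil lists. The PAN sums of the MHC class II, T and NK cell and mast cell lists were 6902, 353 and 85 CPM. Matricellular genes lay above the healthy 95th percentile in 96.5% of PAN spots, MHC class II genes in 97.5%, B and plasma cell genes in 91.3%, collagens in 88.1% and macrophage genes in 82.7%. In the healthy_LS-FMD section the same shares were 5.96%, 10.6%, 7.88%, 13.8% and 2.9%. The shares of PAN spots were smaller for interferon and antigen processing genes (67%), basement membrane genes (40.1%), matrix proteases and inhibitors (35.6%), T and NK cell genes (30.7%), mast cell genes (4.99%) and neutrophil genes (2.03%). S3 markers lay below the healthy 5th percentile in 87.6% of PAN spots and 24.5% of healthy_LS-FMD spots, and oxidative phosphorylation genes in 94.5% and 15.3%. Podocyte genes lay above the healthy 95th percentile in 1.65% of PAN spots and 5.21% of healthy_LS-FMD spots. The median share of this list was 0.0333% in PAN and healthy_LS-FMD spots and 0% in healthy spots, so it was not confined to a few spots. Across the 2607 PAN spots the shares of matricellular and oxidative phosphorylation genes had a Spearman correlation of -0.55, against -0.14 across healthy spots. Macrophage and MHC class II shares had one of 0.49 against 0.22. These correlations are over spots of a single section whose shares sum to a fixed total, and they are given as a description.

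**Figure D4:**
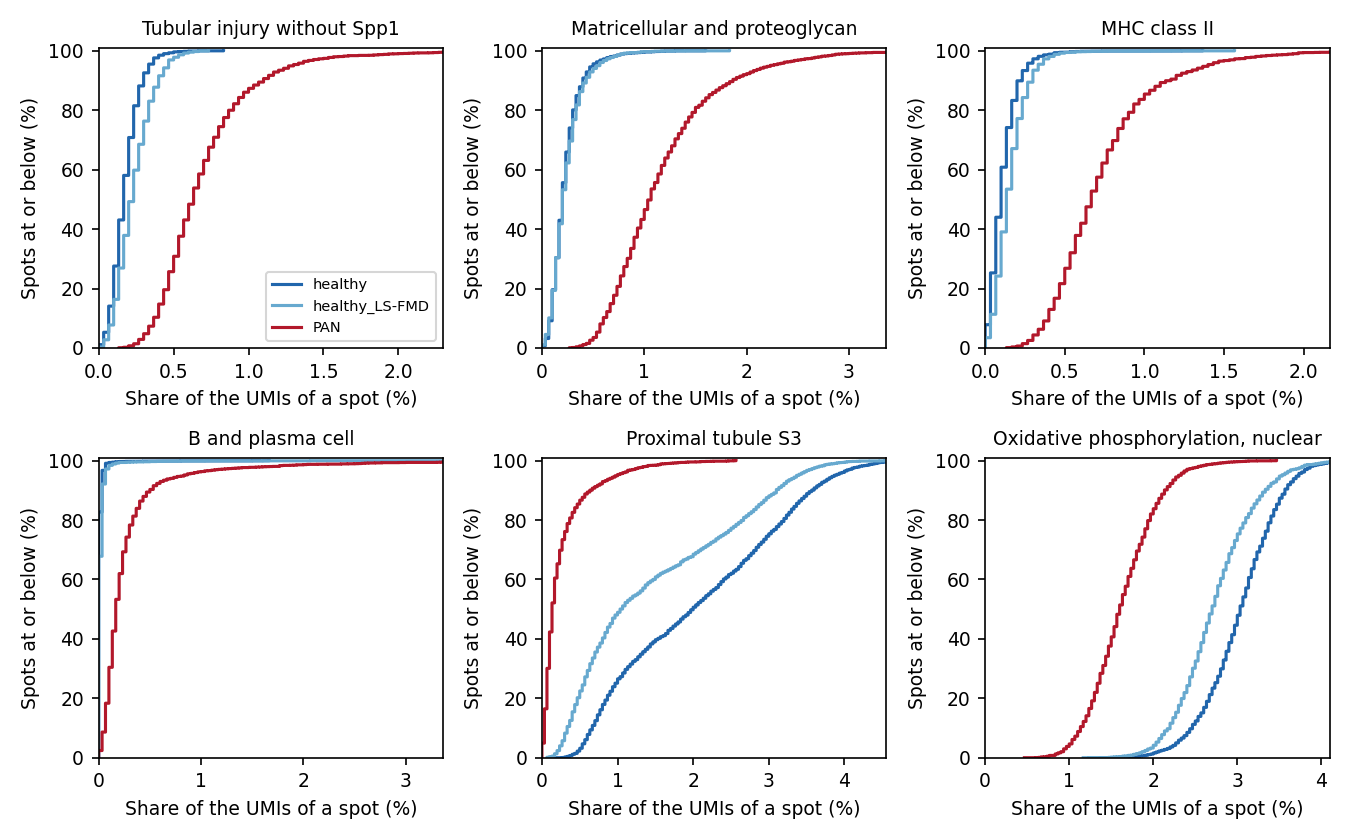
Cumulative share of spots (%) by the percentage of a spot's UMIs that fell in each of 6 gene lists after thinning to 3000 UMIs, for 2863 healthy, 2551 healthy_LS-FMD and 2607 PAN spots. The PAN curve lies to the right of the other curves for injury, matrix and immune lists and to the left for S3 and oxidative phosphorylation genes.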

How the data were processed

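The deposited matrices hold raw UMI counts per gene and spot, written per the file headers by Space Ranger 2.0.1 for the healthy section and 1.2.1 for the other sections; the genome build and annotation are not given in the sources used here. Per the labels' protocols, frozen kidney was sectioned at 10 µm for spatial capture.

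Spots with fewer than 500 UMIs were left out (5 of 2729 PAN and 3 of 2869 healthy spots). UMIs were summed per gene over spots and scaled to CPM, and genes with at least 200 UMIs over both sections were compared. A gene was called at a CPM ratio of at least 2, and intervals are exact 95% Poisson ratio intervals that cover counting error only. A count of 0 was read as up to 3 counts. No test was made, since each group was 1 section. On counts simulated as Poisson the intervals covered 95.4%, which checks their computation only and not the spread between spots or animals. PAN and healthy shared 2279 barcodes, which are slide positions and not cells. Doublets have no meaning for spots.

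The members and the 54 gene lists (1013 genes, 992 in the files) were chosen with earlier results of these data known. Named genes were chosen, leaving out mitochondrial, ribosomal, haemoglobin, immunoglobulin, provisional and unnamed symbols and pseudogenes, from the 15 highest and 15 lowest by the interval limit nearest to a ratio of 1 that differed at least 2-fold the same way from healthy_LS-FMD, the 12 largest gains and 12 largest losses in CPM, the 6 highest and 6 lowest that differed the opposite way from healthy_LS-FMD, up to 4 members of each list furthest from a ratio of 1, and 14 defining kidney genes; Krt7, Prom1, RT1-Da, RT1-Ba and the unmeasured list members were named after their values were seen. Some genes that this rule names are not reported here. Promoter sequences came from RefSeq (GRCr8). Python 3.11.15, numpy 2.4.6, scipy 1.17.1 and pandas 2.3.3 were used. Alternatives changed the scaling, the spot and gene minimums, the threshold, the reference and the weight of spots.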

Additional observations from a re-analysis of the deposited data

How the results depend on the processing

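The ratios rest on counting error alone, because each group was 1 section, and no paired analysis was possible because the groups share no replicate numbers beyond that single section. With median-of-ratios scaling, which sets the all-gene median to 0, 1294 genes were higher and 1122 lower, with a median of 0.00. A gene minimum of 1000 UMIs left 1269 higher, and the healthy_LS-FMD reference gave 1262 higher with a median of 0.12. In spots of 5000 to 12000 UMIs, an alternative added after the data had been examined, 1262 were higher and 274 lower, with a median of 0.37. Only the shallow healthy spots fall in that window. At 1.5-fold 4404 were higher and 1020 lower, and at 4-fold 715 and 135. Of the 24 list medians at least 2-fold from 0 and the 94 named genes called, all kept their direction except against healthy_LS-FMD and in that window. Against healthy_LS-FMD the reversed log2 ratios were -0.60 for the inner medulla list, -1.34 for RT1-Bb, -1.98 for Dmrtc1c1, -1.07 for Slc14a1, -1.61 for Ndrg4, -1.92 for Wnt7b, 1.72 for Nwd2, 1.05 for Ahsp, 1.46 for Alox15, 2.12 for Vnn1 and 1.85 for Prima1. In the window Cnn1 was reversed, at -0.18. The cause was not tested. A 2-fold list median remained in 16 of 24 lists with median-of-ratios scaling, 19 against healthy_LS-FMD and 17 in the window.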

Other observations

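The following counts of further gene groups stand beside 22.5% of all genes higher and 5.42% lower against healthy. Immediate early genes, which cells switch on within minutes of a stimulus, were higher in 7 of 11 measured members and lower in none. The transcription factor gene Egr1 stood at 73.6 CPM against 6.51 in the healthy section and 9.63 in the healthy_LS-FMD section, and Egr2 at 16.8 against 0.751 and 0.79. Cell cycle genes were higher in 9 of 17 measured members. The proliferation marker Mki67 stood at 14.2 CPM against 2.66 and 1.38, and Mcm3, of the replication helicase, at 17.5 against 3.16 and 3.16. The cell cycle inhibitor Cdkn2b stood at 18.9 CPM against 0.529 and 0.158, while 10 of the 13 measured arrest genes were neither higher nor lower, a share of higher members near that of all genes.

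Iron and metal genes were split, with 5 of 11 measured members higher and 2 lower. Cp, the copper-carrying ferroxidase ceruloplasmin, stood at 214 CPM against 19.5 in healthy and 23.8 in healthy_LS-FMD, whereas Tfrc, the transferrin receptor, stood at 22.5 against 60.2 and 86.1. Claudins of the tight junction were higher in 6 of 15 measured members against healthy and in 1 of 15 against healthy_LS-FMD, where 12.9% of all genes were higher. Cldn6 stood at 18.3 CPM in the PAN section, 2.51 in healthy, 23.7 in PAN_LS-FMD and 3.47 in healthy_LS-FMD, so both injected rats lay above both uninjected ones. P450 genes were higher in 6 of 29 measured members, near the share of all genes. Among them Cyp24a1, which inactivates vitamin D, stood at 183 CPM against 35.8 and 24.2, and Cyp1b1 at 43.7 against 1.6 and 3.75. Heat shock genes were higher in 4 of 11 measured members and lower in 1. Cryab, a small chaperone, stood at 254 CPM against 1232 and 1342, and Hspa1b, an inducible chaperone, at 85.1 against 13.7 and 32.9.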
